A study of Mus musculus with 16 samples.

Results

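Accessible chromatin at 9 genes of the erythroid lineage was examined in sorted mouse hematopoietic stem and progenitor cells (HSPCs). The genes were chosen by name. They were the adult β-globin genes Hbb-bt and Hbb-bs, the adult α-globin genes Hba-a1 and Hba-a2, the transcription factor genes Klf1 and Gfi1b, the anion exchanger gene Slc4a1, the transferrin receptor gene Tfrc and the carbonic anhydrase gene Car2. The 9 genes lie in 7 loci, each taken as the gene body with 10 kb on either side, or 60 kb on either side of the adult globin genes. Merging the ATAC-seq peaks of all libraries, with 1 bp of overlap as the minimum, gave 296215 regions, and 121 of these lay in the 7 loci.

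ATAC-seq reads out DNA that is open to the transposase Tn5. There were 16 libraries from 4 genotypes with 4 libraries each, named WT, P300KO, TET2KO and P300KO_TET2KO, and every library pooled the HSPCs of a pair of mice. By the study's methods, the WT mice carried the floxed Ep300 alleles (Ep300 fl/fl) without Cre, P300KO mice were Mx1-Cre Ep300 fl/fl, TET2KO mice were Ep300 fl/fl with germline loss of Tet2 (Tet2-/-), and P300KO_TET2KO mice were Mx1-Cre Ep300 fl/fl Tet2-/-. Mx1-Cre is switched on by interferon in blood cells and in other tissues, and mice of every genotype received poly(I:C), so the controls share the floxed allele and the injection. By the same methods all mice were on the C57BL/6 background and were injected as young adults, and the labels do not give the age at sampling. Replicates 1 and 2 are called deposit set 1, since only their labels mention a merged list of peaks, and replicates 3 and 4 are called deposit set 2.

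Red cells arise from HSPCs through committed erythroid progenitors, in which Gata1, Klf1 and their partners switch on hemoglobin, the red cell membrane and iron uptake. The adult α- and β-globin genes are silent or nearly so before that commitment, and each cluster is governed by distant enhancers that lie upstream of it, for α-globin inside the neighboring gene Nprl3. Transcription factor genes such as Gfi1b, and housekeeping genes of iron and heme metabolism, are by contrast already active in progenitors.

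Lists of set 1 held 86039 to 110055 peaks and those of set 2 held 130610 to 137335. WT replicate 1 stood apart, with 44349 peaks at a −log10 q of at least 2 against 61343 to 130142 in the other libraries. The lists carry no read counts, so the depth of each library is unknown beyond the minimum that the study's methods set for all, and no counting interval is given. As a check on the labels, the Ep300 and Tet2 genes held no region with a peak in all 8 libraries that keep the gene and in 0 of 8 that lack it, and both promoters had a peak in every library, so the lists do not show the deletions. The promoters of 8 of 10 stem and progenitor genes had a peak in all 16 libraries. The same held for 1 of 4 B cell genes, 0 of 4 T cell genes, 2 of 5 mature myeloid genes and 4 of 5 megakaryocyte genes, beside 58.9% of 21911 protein-coding genes. Promoters were taken within 1 kb of the outer annotated start of each gene, so any other start of a gene was not examined. By this measure Ms4a1, Cd3d, Ly6g and Ppbp, markers of B cells, T cells, neutrophils and platelets, had no promoter peak in any library. Neither had Gata1. The genes of those lists with a promoter peak in all 16 libraries were Cd79b, Ltf, Itgam, Pf4, Gp9, Itga2b and Gp1ba.

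Regions are given on the mm10 build. The sequence below is 300 bases of the mm10 reference around the strongest summit of each region, on the + strand, and is shown for the strongest region of the Hbb locus (upstream of the embryonic gene Hbb-y), for the region 1.7 kb downstream of the Hbb-bt start, for the region of the Hba locus that differed most with Tet2 loss (upstream of Mpg), and for the strongest Gfi1b region outside the promoter. Capitals mark matches on either strand to 3 motifs. The Gata factor motif was taken as AGATAA and, in its other common form, as TGATAA. The Nfe2 motif was taken as GCTGAGTCA and the Klf factor motif as CCNCNCCC.
Hbb upstream region, chr7:103860976-103861275: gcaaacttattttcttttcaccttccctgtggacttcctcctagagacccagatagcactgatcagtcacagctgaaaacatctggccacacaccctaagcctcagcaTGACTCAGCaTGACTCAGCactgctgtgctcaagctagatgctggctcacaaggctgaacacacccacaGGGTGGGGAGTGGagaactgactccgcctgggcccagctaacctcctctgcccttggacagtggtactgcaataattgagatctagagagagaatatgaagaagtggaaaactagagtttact
Hbb-bt downstream region, chr7:103812194-103812493: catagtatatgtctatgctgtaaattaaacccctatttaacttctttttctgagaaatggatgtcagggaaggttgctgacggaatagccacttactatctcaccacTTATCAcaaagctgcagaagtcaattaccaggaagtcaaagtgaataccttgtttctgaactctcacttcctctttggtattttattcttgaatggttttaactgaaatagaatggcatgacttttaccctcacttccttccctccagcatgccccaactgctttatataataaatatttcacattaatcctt
Hba locus, Mpg upstream region, chr11:32225230-32225529: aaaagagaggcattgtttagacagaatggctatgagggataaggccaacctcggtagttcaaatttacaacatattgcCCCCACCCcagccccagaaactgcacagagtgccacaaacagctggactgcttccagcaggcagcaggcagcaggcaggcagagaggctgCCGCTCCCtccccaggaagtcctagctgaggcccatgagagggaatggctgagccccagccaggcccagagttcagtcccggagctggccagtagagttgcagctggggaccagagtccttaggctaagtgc
Gfi1b distal region, chr2:28599276-28599575: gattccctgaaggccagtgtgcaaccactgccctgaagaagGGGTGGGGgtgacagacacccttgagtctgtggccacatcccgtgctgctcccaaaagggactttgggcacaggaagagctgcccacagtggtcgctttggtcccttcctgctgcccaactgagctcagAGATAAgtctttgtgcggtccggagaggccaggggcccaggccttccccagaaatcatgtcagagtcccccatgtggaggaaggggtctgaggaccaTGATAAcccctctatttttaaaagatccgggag

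The Hbb upstream sequence held 2 Nfe2 matches next to each other, and it was the only 1 of the 28 sequences from member regions found in all 16 libraries with such a match (3.57%, beside 1.33% of 39310 regions of this kind across the genome). Gata matches were in 4 of the 28 sequences (14.3%, beside 17.3%) and Klf matches in 13 (46.4%, beside 48.0%). The Gata matches were in the Hbb-bt downstream region, in both Gfi1b regions downstream of the gene and in the region 29.7 kb downstream of the Tfrc start. A match is a string of letters and not evidence of binding, and some Klf matches overlap each other.

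Of the 121 member regions, 28 (23.1%) had a peak in all 16 libraries and 45 (37.2%) in only 1, beside 13.3% and 45.6% of all regions. By position, 14 covered the start of a protein-coding gene, 12 lay in exons, 29 in introns and 66 between genes. The Hba locus held 44 regions and the Hbb locus 20, followed by 17 at Slc4a1, 13 each at Tfrc and Car2, 10 at Gfi1b and 4 at Klf1. The strength of a region is given below as its rank percentile within a library by −log10 p, where 100 is the strongest peak of that library and a library without a peak counts as 0. Regions called the strongest of a locus are those with the highest mean over the 16 libraries.

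The adult globin genes had little accessible chromatin at their start sites, while the strongest regions of both loci stood 33.0 and 15.8 kb upstream of the nearest adult gene. Hbb-bs and Hbb-bt encode the adult β-globin chains. The start of Hbb-bt was covered by a peak in 1 library, and no peak covered that of Hbb-bs. A region inside each gene had a peak in all 16 libraries. The Hbb-bs region (chr7:103827119-103827911, in the gene, ending 185 bp short of its start) had percentiles of 14.95, 53.7, 51.5 and 65.97 in the WT libraries and 25.8, 10.5, 51.9 and 48.2 in P300KO. It had 15.6, 21.9, 59.3 and 49.1 in TET2KO and 36.5, 41.3, 53.7 and 53.4 in P300KO_TET2KO. There the 4 genotypes overlapped, and the 7 lowest values were all in deposit set 1. In the Hbb-bt region all P300KO libraries (50.5 to 58.8) were above all WT libraries (25.1 to 46.8). TET2KO libraries ran from 40.0 to 50.5 there and P300KO_TET2KO libraries from 13.6 to 59.4. The regions in the 2 genes are near-identical copies: of 298 bases compared around their strongest summits, 298 were the same, and 63.1% of the 100-base stretches of the Hbb-bt gene and 59.2% of those of Hbb-bs have another copy in the locus. Peaks inside Hbb-bt and Hbb-bs may therefore share reads. The Hbb upstream region (chr7:103860875-103862014, 7.9 kb upstream of the start of Hbb-y and 33.0 kb upstream of that of Hbb-bs) ranged from 61.8 to 85.0, with a median of 79.6. By its mean it was the strongest of its locus, on the side of the cluster where the β-globin locus control region is known to lie. Its range overlapped that of the region 1.7 kb downstream of the Hbb-bt start (43.5 to 78.3).

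The α-globin genes Hba-a1 and Hba-a2 showed the same arrangement. A peak covered the start of Hba-a1 in 5 libraries, at percentiles of 1.77 to 15.8, and the start of Hba-a2 in 3, at 10.9 to 23.4. The 2 genes are near-identical copies: of the 100-base stretches within 500 bp of the start, 78.4% at Hba-a1 and 85.1% at Hba-a2 occur again in the same locus, beside 17.2% at Hbb-bt, 7.10% at Hbb-bs and 0% at the other 5 genes. How reads with several matches were treated is not given in the sources used here, so values at the Hba genes, and inside the Hbb genes, are uncertain. Between the copies and beyond them, the starts of the θ-globin genes Hbq1b (78.3 to 86.0) and Hbq1a (62.1 to 83.4) had a peak in all 16 libraries. The sequences around these 2 starts are near-identical too, so their peaks may share reads and their values are uncertain in the same way. Inside the introns of Nprl3, the strongest region (chr11:32238129-32238992, 44.9 kb upstream of Hba-a1) had a peak in all 16 libraries, at 69.4 to 92.1. The region at chr11:32246954-32248086, 36.2 kb upstream of Hba-a1, had a peak in all 16 libraries (21.6 to 83.4, median 75.0), and that at chr11:32265129-32265624 in 15 (69.2 to 84.8). The other 3 intronic regions had a peak in 1 library each. The Nprl3 start (chr11:32267173-32267932) was the strongest region of the locus, at 90.8 to 95.7. The plot of the globin loci shows the short lines at the adult gene starts between taller ones on either side.

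**Figure D1:**
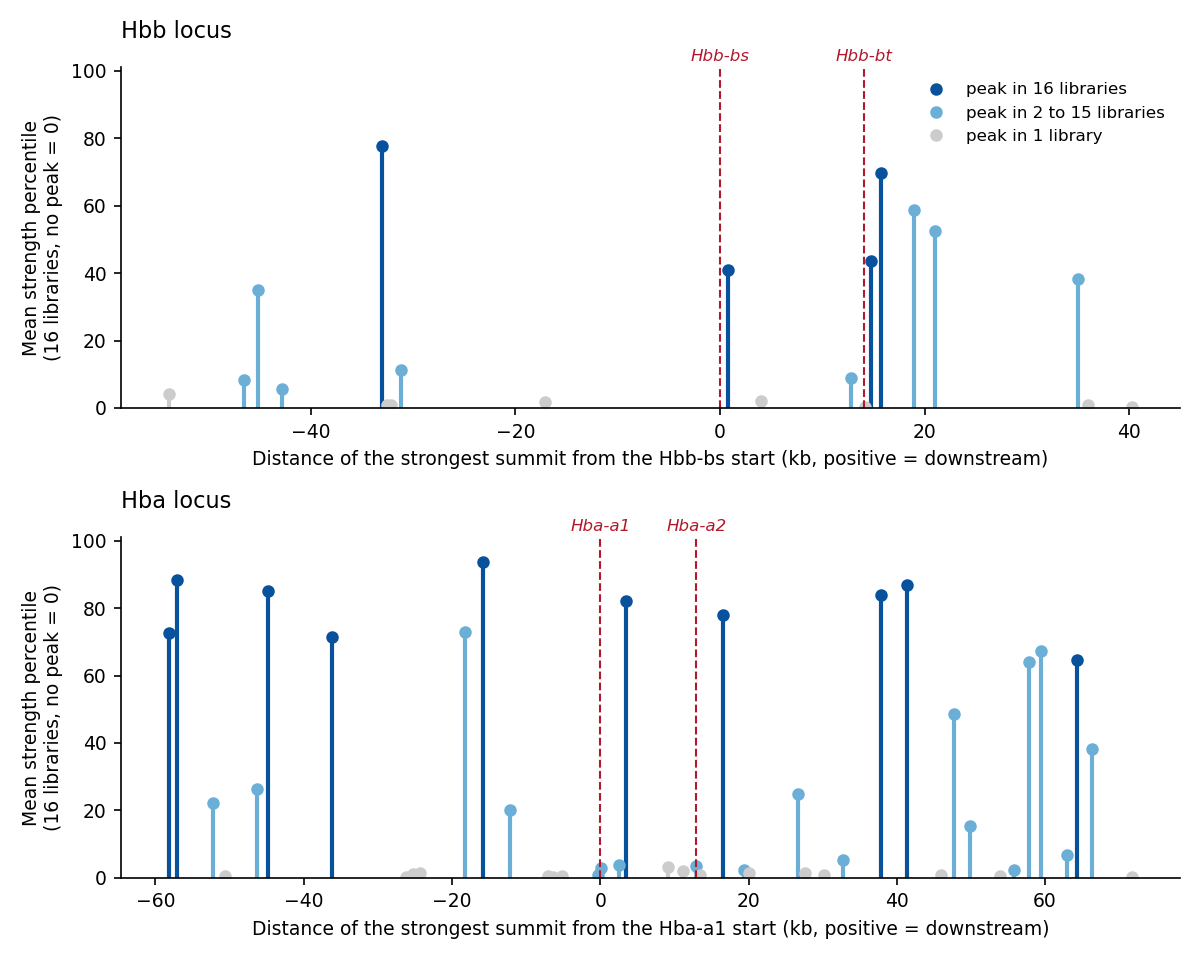
Strength of every accessible region at the Hbb (top, 20 regions) and Hba (bottom, 44 regions) loci. The x axis is the distance of the region's strongest summit from the start of Hbb-bs or Hba-a1 in kb (negative is upstream), the y axis is the mean strength percentile over 16 libraries with 0 for no peak, colors give the number of libraries with a peak, and dashed lines mark the adult gene starts. Regions covering the Hba-a1 and Hba-a2 starts have mean percentiles of 2.99 and 3.48, while the Nprl3 start is at 93.5 and the Hbb upstream region at 77.8.

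Klf1 and Gfi1b, the transcription factor genes among the 9, were accessible in every library. Klf1 encodes the factor that activates β-globin and many other red cell genes. Its locus held 4 regions, and all had a peak in all 16 libraries. The region in Klf1 itself (chr8:84902609-84903689, in a coding exon, starting 681 bp beyond the annotated start) was at 96.3 to 99.4, and the promoters of the neighbors Gcdh (95.3 to 98.9) and Dnase2a (96.8 to 99.6) overlapped this range. No peak region covered the annotated start base of Klf1. Gfi1b encodes a repressor needed for red cell and platelet development. The region over its start (chr2:28621402-28622814) was at 88.0 to 93.4, and the distal region 22.6 kb downstream of it (chr2:28597746-28600004), whose sequence is printed above, at 80.9 to 92.1.

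The other 3 genes differed from each other. Tfrc, the receptor that imports transferrin-bound iron, had one of the strongest start regions of the 9 genes (chr16:32608400-32609776), at 96.7 to 98.4 in all 16 libraries. Car2, the carbonic anhydrase of red cells, had its start region (chr3:14886072-14888006) at 87.5 to 93.7 in all 16. Slc4a1, the band 3 protein of the red cell membrane, had no peak within 1 kb of its start in any library. Its only regions with a peak in all 16 libraries were 27.4 kb downstream of the start (82.4 to 89.6) and 9.2 kb upstream (6.66 to 47.0). In order of the strongest region within 1 kb of the start, the means over 16 libraries were 97.9 for Klf1, 97.7 for Tfrc, 91.3 for Gfi1b, 90.3 for Car2, 43.7 for Hbb-bt, 40.8 for Hbb-bs, 4.32 for Hba-a2, 3.93 for Hba-a1 and 0 for Slc4a1. Neighbors in that order overlapped in range, except that Tfrc lay above Gfi1b and Car2 above Hbb-bt in every library.

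Genotypes were then compared by how many regions of a locus had a peak, to ask whether loss of p300, of Tet2 or of both opened or closed the loci. At the Hba locus the WT libraries had 15, 18, 23 and 22 regions and the P300KO libraries 21, 16, 26 and 25. TET2KO had 15, 18, 22 and 25 there and P300KO_TET2KO had 17, 17, 22 and 22. Within each genotype the set 1 libraries held fewer regions than the set 2 libraries, and the genotypes overlapped. The means were 17.1 ± 1.96 in set 1 and 23.4 ± 1.69 in set 2 (SD, n = 8 each), so deposit set was kept as a term in the fit. The P300KO libraries had 2.5 ± 1.15 (SE) more regions than WT, 2 more in set 1 and 3 more in set 2 (limma, adjusted p = 0.543, exact permutation p = 0.167). For P300KO_TET2KO against P300KO the difference was -2.5 ± 1.15 (adjusted p = 0.758, exact permutation p = 0.167). With only the strongest 50000 peaks of each list, the 2 differences were 0.5 (adjusted p = 0.889) and 1.25 regions (adjusted p = 0.924), so the second turned in direction.

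At the Hbb locus the counts were 9, 8, 9 and 10 in WT, 10, 6, 12 and 9 in P300KO, 8, 10, 11 and 10 in TET2KO and 9, 9, 11 and 11 in P300KO_TET2KO. p300 loss, averaged over both Tet2 backgrounds, changed the mean by 0.25 regions (95% interval -1.06 to 1.56). At Klf1 all 16 libraries had 4 regions, so there was no spread to test. At Gfi1b the counts were 7 in every WT and every P300KO_TET2KO library, 6, 4, 7 and 7 in P300KO, and 6, 6, 8 and 7 in TET2KO. For Slc4a1, Tfrc and Car2 the counts ran from 2 to 8, 2 to 6 and 3 to 9. The 95% intervals for p300 loss were -1.43 to 1.43 at Slc4a1, -1.40 to 0.90 at Tfrc, -1.14 to 0.39 at Gfi1b and -0.31 to 2.31 regions at Car2.

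None of the 7 loci passed the test of region counts (limma, Benjamini-Hochberg adjusted over 19726 gene windows). This held for P300KO_TET2KO against TET2KO (0.0101% of all windows passed), P300KO against WT (0%), TET2KO against WT (0.00507%), P300KO_TET2KO against P300KO (0%), p300 loss over both backgrounds (0.0203%), Tet2 loss over both backgrounds (0%) and the interaction of both losses (0%). The unadjusted p was under 0.05 for 0 of 7 loci in each of these, beside 5.19% to 9.6% of all windows. Exact permutation tests, in which libraries were exchanged within deposit set and within the other genotype, cannot go below 0.0556 for a single pair of genotypes or below 0.00154 for an average.

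**Figure D2:**
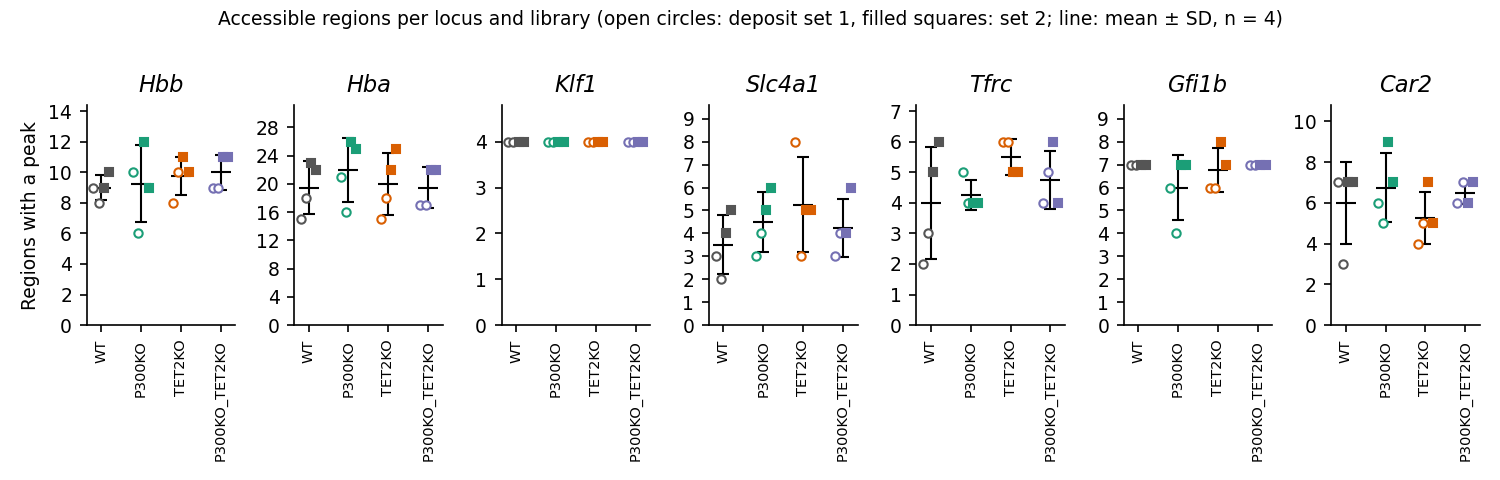
Number of regions with a peak (y axis) in each library at the 7 loci, by genotype (x axis). Open circles are deposit set 1, filled squares deposit set 2, and black lines the mean ± SD of 4 libraries. The 4 genotypes overlap at every locus, Klf1 has 4 regions in all 16 libraries, and at Hba the squares lie above the circles in each genotype.

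No member region was gained or lost outright in the 4 comparisons made. The rule was a peak in all 4 libraries of a genotype and in none of the genotype it was compared with, and 0 member regions met it in P300KO_TET2KO against TET2KO (of 89 with any peak), in P300KO against WT (of 102), in TET2KO against WT (of 104) and in P300KO_TET2KO against P300KO (of 87). Across the genome 0.114%, 0.0276%, 0.0255% and 0.146% of regions met that rule in these comparisons. The nearest to it in these comparisons, with 3 libraries against 0, were 2 regions. That 8.5 kb upstream of Car2 (chr3:14877614-14877995) had a peak in 3 WT, 4 P300KO, 0 TET2KO and 2 P300KO_TET2KO libraries, and P300KO was not compared with TET2KO. That next to the Hbb upstream region (chr7:103859156-103859404) had a peak in 0 WT, 3 P300KO, 2 TET2KO and 2 P300KO_TET2KO libraries.

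Strength was compared at the 28 member regions that had a peak in all 16 libraries. For this, each of the 39310 regions of this kind was ranked among them in each library, and the resulting shared-region percentile takes list length out of the scale. Tet2 loss lowered 2 of the 28, both in the Hba locus, beside 0.977% of all regions that passed in either direction. The first lies 1.1 kb upstream of Mpg, a DNA repair glycosylase gene next to Nprl3, and 58.1 kb upstream of Hba-a1 (chr11:32224776-32225626). Its shared-region percentiles were 30.9, 58.9, 46.8 and 37.7 in WT and 54.0, 34.4, 31.9 and 34.7 in P300KO. They were 25.6, 18.4, 14.7 and 28.3 in TET2KO and 24.6, 18.7, 20.1 and 15.2 in P300KO_TET2KO. All 8 libraries without Tet2 were below all 8 with it. The mean fell by 20.4 points (SE 4.36) from 41.2 to 20.7, by 22.7 in set 1 and by 18.2 in set 2 (limma, adjusted p = 0.0205). The exact permutation p was 0.00154, the smallest these arrangements can give.

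The second was the Nprl3 start, where Nprl3 encodes a subunit of an mTORC1 inhibitor complex and houses α-globin enhancers in its introns. WT libraries were at 88.4, 86.9, 79.0 and 81.4 and P300KO libraries at 89.1, 86.2, 82.8 and 78.9. TET2KO libraries were at 78.6, 79.4, 78.1 and 75.9 and P300KO_TET2KO libraries at 78.0, 84.2, 73.8 and 79.2. The groups with and without Tet2 overlapped, and the mean fell by 5.70 points (SE 1.34) from 84.1 to 78.4, by 7.60 in set 1 and by 3.79 in set 2 (limma, adjusted p = 0.0387, exact permutation p = 0.00309). The first call was lost when TET2KO replicate 2 or 3 or P300KO_TET2KO replicate 2 or 4 was left out (adjusted p up to 0.059), with differences of -23.7 to -17.9 points over all 16 libraries left out, and the second when any of 10 libraries was left out (adjusted p up to 0.111). Ranked by fold enrichment, the first differed by -10.5 points (adjusted p = 0.113), and among regions in at least 8 libraries by -9.33 (adjusted p = 0.328). The first also missed the threshold without the deposit set term (adjusted p = 0.0759), where its difference stayed at -20.4 points. The second missed it under 6 of 8 alternatives (adjusted p up to 0.309), among them the replicate block (adjusted p = 0.0632). The second kept its direction under all 8, with differences of -6.24 to -4.35 points over all 16 libraries left out. Without WT replicate 1, which stood apart, both held (adjusted p = 0.00431 and 0.0443).

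**Figure D3:**
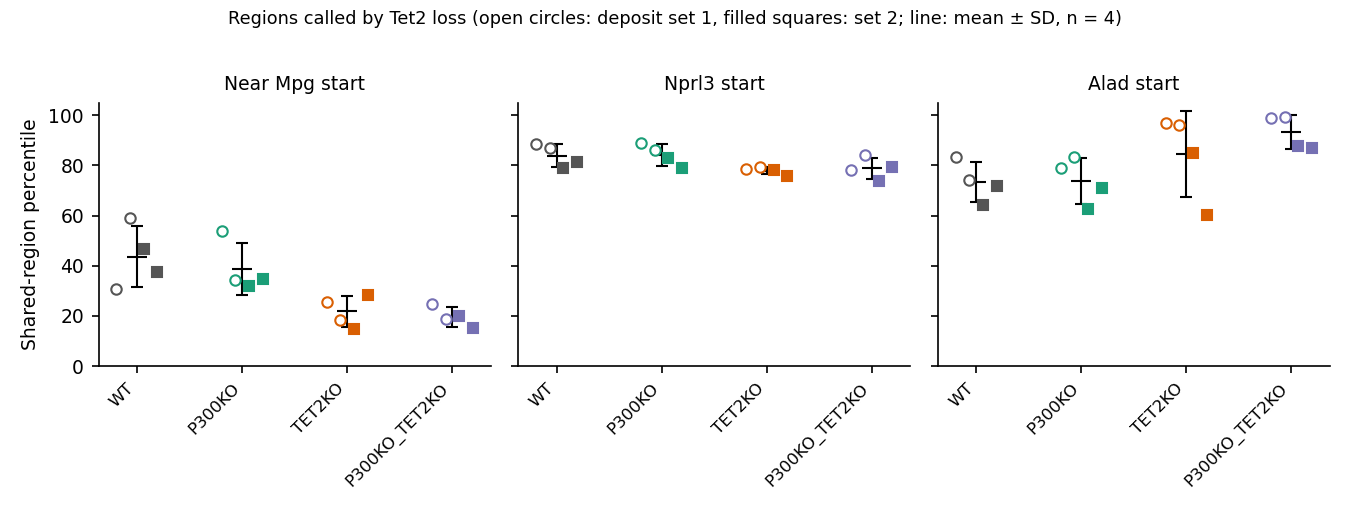
Shared-region percentile (y axis, 100 is the strongest) per library and genotype (x axis) for the region upstream of Mpg, the Nprl3 start and the Alad start. Open circles are deposit set 1, filled squares set 2, and black lines the mean ± SD of 4 libraries. Near Mpg all TET2KO and P300KO_TET2KO values (14.7 to 28.3) lie below all WT and P300KO values (30.9 to 58.9), and at Alad P300KO_TET2KO (87.1 to 99.2) lies above P300KO (62.5 to 83.3).

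No other region of the Hba locus passed. At the Hbq1a start, next to Hba-a2, WT libraries were at 22.7, 33.9, 30.4 and 42.5, P300KO at 44.0, 52.1, 27.1 and 24.8, TET2KO at 51.1, 42.0, 37.4 and 41.7 and P300KO_TET2KO at 55.5, 53.3, 42.3 and 46.6. Its mean was 11.6 ± 4.22 (SE) points higher without Tet2, which did not pass (limma, adjusted p = 0.204, exact permutation p = 0.00772). At the Hbq1b start, whose sequence is near-identical, the difference was -1.20 ± 3.48 points (limma, adjusted p = 0.913). Peaks at these 2 starts may share reads. At the Nprl3 intron region 36.2 kb upstream of Hba-a1 the difference was -3.74 ± 5.89 points (adjusted p = 0.818). At the Hbb upstream region WT libraries were at 34.8, 52.7, 51.0 and 40.4, P300KO at 49.97, 53.1, 39.2 and 38.5, TET2KO at 21.8, 51.9, 36.4 and 36.9 and P300KO_TET2KO at 39.1, 46.4, 26.9 and 25.7. The genotypes overlapped, with a difference for Tet2 loss of -9.31 ± 4.54 points (adjusted p = 0.355) and for p300 loss of -0.89 ± 4.54 (adjusted p = 0.948).

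Loss of p300 changed no member region past the threshold in any comparison. The Gfi1b start came closest. Its shared-region percentiles were 78.2, 73.8, 67.1 and 64.2 in WT, 77.2, 74.6, 76.4 and 73.3 in P300KO, 72.1, 80.3, 71.0 and 72.5 in TET2KO and 83.7, 79.9, 77.2 and 78.1 in P300KO_TET2KO. The mean was 77.5 without p300 and 72.4 with it (difference 5.15 ± 1.71, adjusted p = 0.103, exact permutation p = 0.0139). The region 16 kb downstream of the Gfi1b start (chr2:28605633-28606512) had values of 3.44, 13.2, 12.7 and 5.17 in WT, 5.91, 3.93, 3.69 and 1.14 in P300KO, 14.4, 6.16, 10.1 and 11.96 in TET2KO and 4.82, 2.67, 2.68 and 2.92 in P300KO_TET2KO. Its mean was 3.47 without p300 and 9.63 with it (difference -6.16 ± 2.17, adjusted p = 0.126, exact permutation p = 0.00772). Ranked by fold enrichment, the difference at the Gfi1b start turned to -1.72 points (adjusted p = 0.795). Without WT replicate 1, both Gfi1b regions passed, with opposite signs (4.93, adjusted p = 0.0308, and -10.9, adjusted p = 0.0194).

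At the region inside Klf1 the mean was 95.3 without p300 and 93.1 with it (difference 2.18 ± 0.74, adjusted p = 0.109). At the Hbb-bt downstream region it was 20.3 against 30.6 (difference -10.3 ± 4.35, adjusted p = 0.212). At the Car2 start the mean was 69.5 without Tet2 and 74.4 with it (difference -4.94 ± 1.98, adjusted p = 0.255), and at the Tfrc start the differences were 0.76 ± 0.72 for p300 loss and 0.30 ± 0.72 for Tet2 loss. The plot of differences shows the 28 regions side by side.

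**Figure D4:**
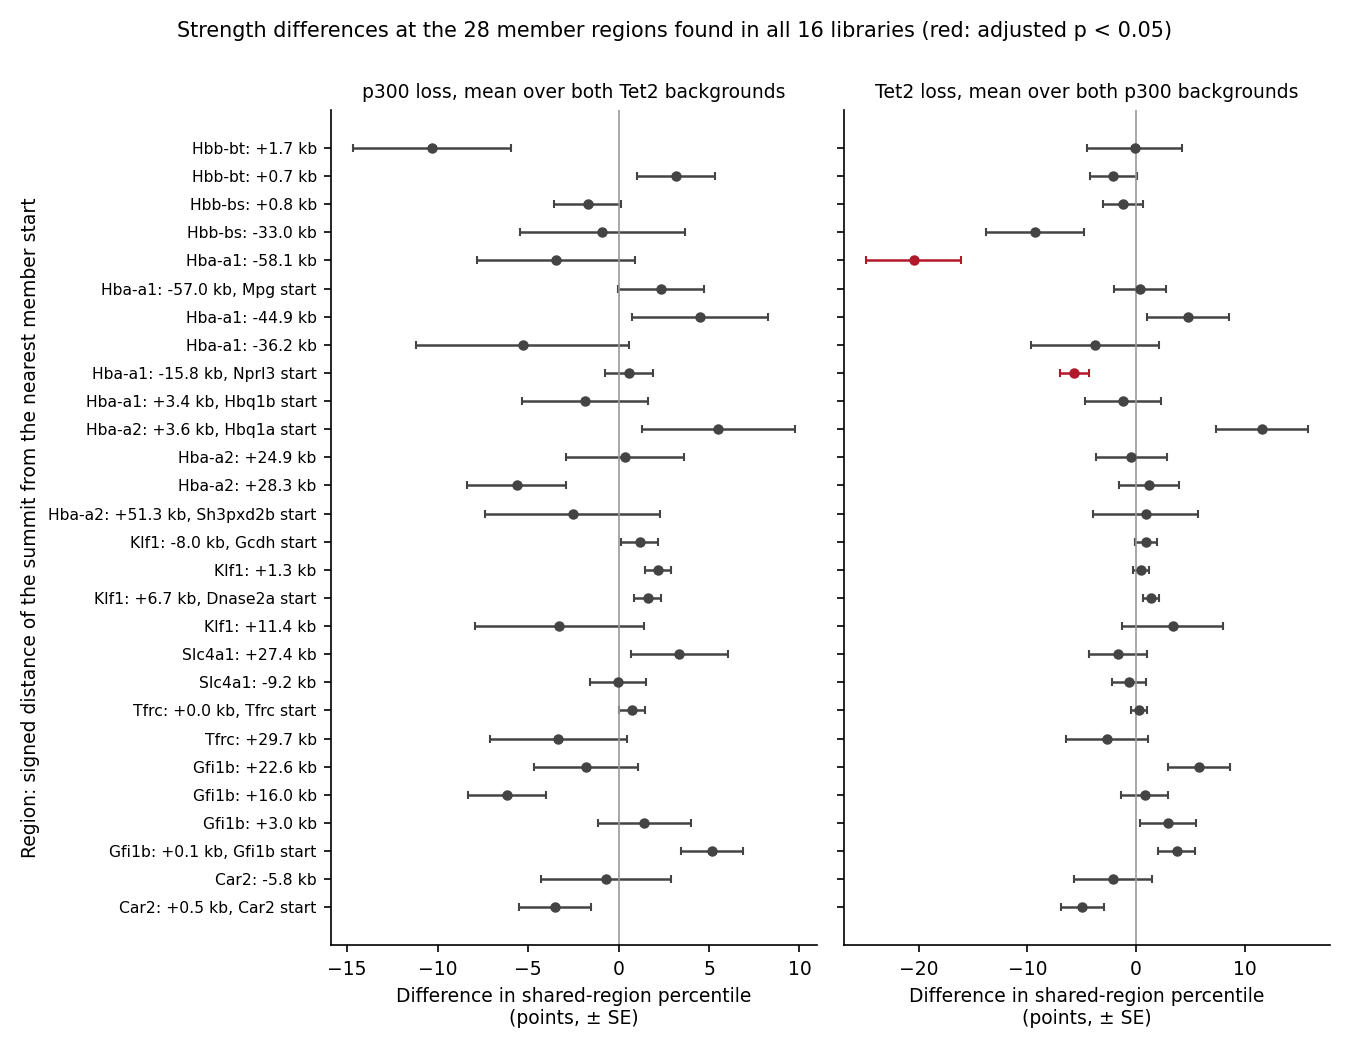
Difference in shared-region percentile (x axis, points, ± SE) at the 28 member regions with a peak in all 16 libraries, for loss of p300 (left) and of Tet2 (right), each averaged over the other genotype. Rows give the distance of the region's summit from the nearest member start, and red marks an adjusted p under 0.05. The region upstream of Mpg (-20.4) and the Nprl3 start (-5.70) are red on the right, and the left panel has no red point.

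Over all 28 regions, the number that passed was 0 for P300KO_TET2KO against TET2KO (0.12% of all regions passed), 0 for P300KO against WT (0.931%), 0 for TET2KO against WT (0.0458%), 0 for P300KO_TET2KO against P300KO (0.295%), 0 for p300 loss over both backgrounds (3.03%), 2 for Tet2 loss over both backgrounds (0.977%) and 0 for the interaction (0%). At an unadjusted p under 0.05 the numbers were 3, 3, 2, 5, 5, 5 and 0 in the same order, beside 8.17%, 16.1%, 11.1%, 9.17%, 17.6%, 14.3% and 5.28% of all regions. The median difference was -0.34 points for p300 loss and 0.08 for Tet2 loss, beside 0.12 and 0.10 over all regions. The comparisons share libraries and are not independent.

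Other genes of the lineage were summarized by their promoters, taken as the strongest region within 1 kb of the outer annotated start. Of 37 such genes, 26 (70.3%) had a promoter peak in all 16 libraries and 4 (10.8%) in none, beside 58.9% and 25.2% of all protein-coding genes. Among 8 transcription factors, Nfe2 was the highest, with a mean of 98.9, and Gata1 had no peak within 1 kb of that start. Any other start of Gata1 was not examined. Among 8 heme synthesis genes, 7 had a peak in every library, with Ppox the highest at 98.9, while Alas2, the erythroid form of the first enzyme, had a peak in 1 library. Among 12 membrane and skeleton genes the means ran from 95.4 for Epb41, which is also used outside red cells, to 1.45 for Rhag and 0 for Ermap. Among 6 signaling and iron genes they ran from 95.7 for Slc25a37 to 29.3 for Slc11a2, and the erythropoietin receptor gene Epor was at 91.8. The embryonic globins Hbb-y and Hbb-bh1 had no promoter peak, and Hba-x had one in 1 library.

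**Figure D5:**
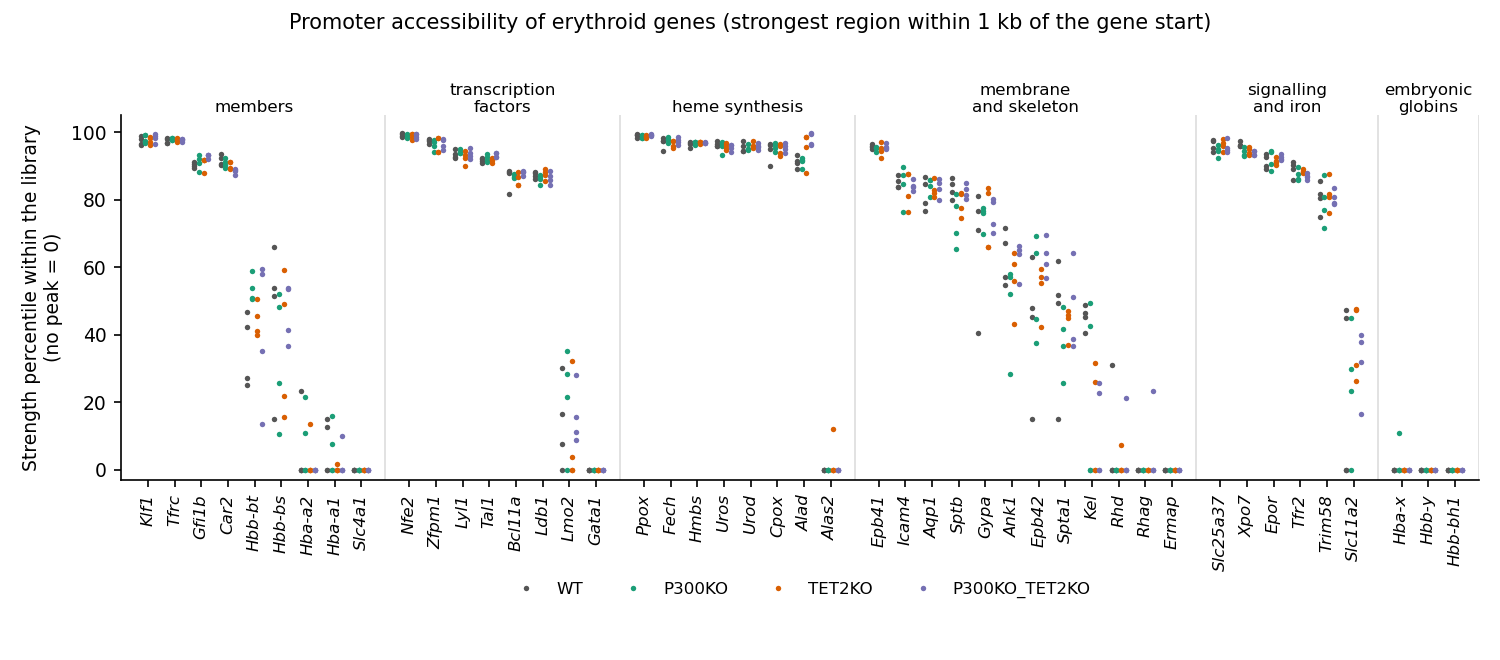
Strength percentile of the strongest region within 1 kb of the outer annotated start (y axis, 0 for no peak) for the 9 members and 37 other erythroid genes. There is 1 point per library, colored by genotype. Klf1, Tfrc, Gfi1b and Car2 lie above 87 in all 16 libraries, the adult globins below 67, and Slc4a1, Gata1, Ermap, Hbb-y and Hbb-bh1 at 0. The Klf1, Hbb-bt and Hbb-bs values come from regions inside the genes that do not cover the start.

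None of the 37 gene windows passed the test of region counts in any comparison. Of the 26 promoters with a peak in all libraries, 1 passed in the test of strength, for P300KO_TET2KO against P300KO (0.295% of all regions) and for Tet2 loss over both backgrounds (0.977%). It was that of Alad, the second enzyme of heme synthesis (chr4:62518814-62520293). Its shared-region percentiles were 83.3, 74.3, 64.3 and 71.8 in WT, 79.0, 83.3, 62.5 and 71.0 in P300KO, 96.8, 96.3, 85.0 and 60.2 in TET2KO and 99.1, 99.2, 87.9 and 87.1 in P300KO_TET2KO. P300KO_TET2KO was 19.4 ± 3.74 points above P300KO (adjusted p = 0.0204), and Tet2 loss over both backgrounds raised it by 15.3 ± 2.65 points (adjusted p = 0.00396). TET2KO replicate 4 was below all 4 WT libraries. Ranked by fold enrichment, the differences were -1.51 (adjusted p = 0.905) and -0.65 points (adjusted p = 0.94). Without the deposit set term neither passed (adjusted p = 0.606 and 0.217). The sets are balanced over genotypes, so the differences there stayed at 19.4 and 15.3 points. Among regions in at least 8 libraries the first also missed the threshold (9.31 points, adjusted p = 0.0585). The other 25 promoters did not pass in either direction.

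The gene windows whose region counts followed each locus most closely over the 16 libraries, after the mean of each deposit set was removed, were Ndufv3, Plscr1 and Tmem132a for Hbb (Pearson r = 0.847, 0.813 and 0.803). For Hba they were 9030025P20Rik, Ccsap and Tm4sf20 (r = 0.857, 0.814 and 0.814). For Slc4a1 they were Esd, Olfr339 and Olfr1260 (0.876 to 0.866), for Tfrc Klhl22, Capn5 and Ap2s1 (0.876 to 0.844) and for Car2 Kif21a, Hist1h2bc and Hist1h2ac (0.847 to 0.792). These are the highest of 19726 windows of small whole counts that share libraries, so r is a description without a test. Klf1 had no spread and no such gene.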

How the data were processed

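ATAC-seq peak lists of 16 libraries of HSPCs were used, 1 list per library. Per the study's methods and the labels' processing notes, the authors trimmed reads with cutadapt 1.9.1, aligned them to mm10 with Bowtie2 2.2.6, removed duplicates, shifted reads for Tn5 and called peaks in each library with MACS2 2.1.0. The deposited lists give, for each summit, a fold enrichment (a ratio to local background), −log10 p and −log10 q as computed by the authors, all within 1 library, so only presence and rank were compared between libraries. Summits of 1 interval were counted as 1 peak with its highest −log10 p. Genes came from GENCODE M21 and sequence from the GRCm38.p6 (mm10) RefSeq genome.

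Region counts per gene window (windows without a region left out) and shared-region percentiles were tested with limma 3.58.1 in R 4.3.3, with a trend, 4 genotypes, deposit set as a term and Benjamini-Hochberg adjustment over all features. Single values were also tested with two-sided exact permutation tests. The threshold was an adjusted p of 0.05. Both fits were also run on simulated data with planted changes, and the outcome is not quoted here. Python 3.11.15, pandas 2.3.3 and SciPy 1.17.1 were used. Members, gene lists, motifs and the regions printed were chosen with earlier results of these data known. Regions named are those over member starts, the 3 strongest others of a locus, those that passed a test, and further regions picked after their values were seen. The Ahsp gene was not in the annotation used. The gene windows most like Gfi1b are not reported here. Alternatives are given in the closing section.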

Additional observations from a re-analysis of the deposited data

Results flagged for a closer look

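In 10 of 140 sets of 4 libraries, 1 per genotype and locus or region, a library stood apart from the other 3 by Dixon's criterion, where chance gives about 1 in 20. By region count, P300KO replicate 1 had 5 regions at Tfrc where the other 3 had 4, and WT replicate 2 had 3 at Car2 where the other 3 had 7. By shared-region percentile, P300KO_TET2KO replicate 1 was at 2.69 in the Hbb-bs gene region and at 4.82 in the region 16 kb downstream of the Gfi1b start. P300KO replicate 1 was at 54.0 upstream of Mpg, above the other P300KO libraries. WT replicate 1 was at 59.8 in the Nprl3 intron region 36.2 kb upstream of Hba-a1, WT replicate 2 at 14.4 in the region 3.0 kb downstream of the Gfi1b start, and WT replicate 4 at 38.9 in the region 5.8 kb upstream of the Car2 start. P300KO_TET2KO replicate 3 was at 97.2 at the Dnase2a start in the Klf1 locus, and TET2KO replicate 2 at 80.3 at the Gfi1b start. The cause of these values was not tested. The interaction of p300 and Tet2 loss passed at 0 of 28 member regions and 0 of 7 loci (limma, lowest adjusted p = 0.919 and 0.868).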

How the results depend on the processing

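The finding of 0 loci past the test of region counts held in all 6 comparisons under all 7 alternatives and with each of the 16 libraries left out. The count of member regions that passed in strength stayed at 0 for P300KO_TET2KO against TET2KO, P300KO against WT and TET2KO against WT under all 8 alternatives. For P300KO_TET2KO against P300KO it was 1 when ranked by fold enrichment (the Tfrc start, -11.5 points, adjusted p = 0.0437) and 1 with regions in at least 8 libraries (the region 2.0 kb into Sh3pxd2b). Across the genome 95 of 39310 and 191 of 100435 regions passed under these alternatives. For p300 loss the member count was 0 to 2 over the libraries left out, 2 only without WT replicate 1. The share over all regions is not given for fits with a library left out. For Tet2 loss the count of 2 became 1 with the replicate block, 0 without the deposit set term, 0 with at least 50% of the region covered (12 member regions left to test), 1 on the log2 rank scale, 0 when ranked by fold enrichment, 1 with regions in at least 8 libraries (again at Sh3pxd2b), and 0 to 2 over the libraries left out, 0 only without TET2KO replicate 2. The Sh3pxd2b region had a peak in all 8 libraries without Tet2 and in 4 of the other 8, so it entered that wider set through the group where it was high, and its test supports nothing. Across the genome the calls for Tet2 loss were 384 of 39310, and 329 with the block, 91 without the set term, 116 of 15653 with the 50% cover, 355 on the log2 scale, 117 by fold enrichment and 322 of 100435 with at least 8 libraries. The member count stayed at 2 with a −log10 q of at least 2 (275 of 31806 across the genome) and with the strongest 50000 peaks (223 of 28130). With the replicate block the region upstream of Mpg kept its call (adjusted p = 0.0353) and the Nprl3 start did not (adjusted p = 0.0632). The block gives no pairing beyond the deposit set: same-numbered libraries correlated at 0.186 to 0.523 in their deviations from the genotype mean, with 8 of 16 libraries closest to their own number. Once the deposit set mean was removed as well, they correlated at -0.126 to 0.065, with 0 of 16 closest to their own number.

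Member regions gained or lost were 2, 1, 2 and 2 under a looser rule (3 or more libraries of a genotype, 1 or fewer of the other), in the order of comparisons in the report, which 2.68%, 1.56%, 1.44% and 2.58% of all regions met. For P300KO_TET2KO against P300KO they were 1 with at least 50% of the region covered. Over the libraries left out they were 0 to 1 for P300KO against WT (1 without P300KO replicate 2) and 0 to 1 for TET2KO against WT (1 without WT replicate 4), and 0 otherwise. The shares over all regions are not given for the cover rule or the libraries left out.

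Of the differences that had passed, only those at the Alad start turned in direction. This was when ranked by fold enrichment (-0.652 points for Tet2 loss and -1.511 for P300KO_TET2KO against P300KO). The alternatives for Alad were added after seeing the data. With each library left out, its Tet2 loss difference ran from 12.8 to 18.3 points and passed in all 16, and that of P300KO_TET2KO against P300KO ran from 15.8 to 21.1 and missed in 7 of 16. By fold enrichment, p300 loss also gave -0.006 points at the Dnase2a start and -1.72 at the Gfi1b start. With a −log10 q of at least 2, Tet2 loss gave 1 more region at Hba and 0.25 at Car2, and p300 loss 0.5 at Tfrc and 0.25 at Gfi1b. With the strongest 50000 peaks, Tet2 loss gave -1.13 regions at Hbb and 1.5 at Hba, p300 loss 0.125 at Tfrc, and P300KO_TET2KO against P300KO 1.25 at Hba. With at least 50% of the region covered, p300 loss gave 0.5 at Gfi1b. Over the libraries left out, p300 loss ran from -0.091 to 0.682 regions at Hbb and from -0.568 to 0.068 at Tfrc. The cause of these changes was not tested. Peak lists without read counts cannot show differences below the calling threshold of a library.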

Other observations

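The regions and the promoter below were present in uneven numbers of libraries, did not meet the rule of 4 libraries against 0, and were picked after their values were seen. The promoter of Kel, a red cell blood group gene, had a peak in 4 WT, 2 P300KO, 2 TET2KO and 2 P300KO_TET2KO libraries, and 5 of the 6 libraries without it were in deposit set 1, which has the shorter lists. In the Hba locus, the region 2.0 kb into Sh3pxd2b (chr11:32349411-32350122) had a peak in 2 WT, 2 P300KO, 4 TET2KO and 4 P300KO_TET2KO libraries, and the 4 without it were all in deposit set 1. In the Tfrc locus, the region at chr16:32634163-32634502 had a peak in 1 WT, 0 P300KO, 3 TET2KO and 1 P300KO_TET2KO library.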
